A study of Mus musculus with 48 samples.

Results

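Among the transcripts measured in mPDAC cells, a mouse pancreatic ductal adenocarcinoma line, 10 code for members of the S100 and annexin families of calcium-binding proteins. They were chosen by name, 6 S100 genes (S100a4, S100a6, S100a10, S100a11, S100a13 and S100a16) and 4 annexin genes (Anxa1, Anxa2, Anxa3 and Anxa5), out of 50600 genes listed, and all 10 were among the 13889 genes with enough counts to be tested. The cells came from 1 line, so the results apply to that line, and its labels give a mixed FVB/N x C57BL6 background and an age of 8-week-old. Cultures were left non-treated (NT) or received 50 µM N6L, a compound that targets the nuclear and surface protein nucleolin, for 48 h. All cultures received emetine, which holds ribosomes on mRNA, just before lysis. Each lysate gave a cytoplasmic sample and a polysomal sample, the latter being the pooled sucrose gradient fractions in which mRNAs carry several ribosomes. There were 3 NT cultures, numbered 1, 2 and 4, and 3 N6L cultures, numbered 1, 2 and 3, hence 12 libraries of poly(A)+ RNA in 4 groups of 3. The comparisons asked how much of each mRNA was in the cytoplasm and in polysomes with and without N6L, and whether the polysome-to-cytoplasm ratio differed between treatments, a difference called the translational index. The labels do not say how the cultures were kept apart, so the p-values measure the spread between these samples.

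S100 proteins are small proteins that bind calcium through EF-hand loops, usually act as dimers, and change shape on binding so that they can dock on partner proteins. Annexins are larger calcium-dependent proteins that bind acidic phospholipids and organise membrane traffic and repair. The families meet physically, since S100A10 binds annexin A2 and S100A11 binds annexin A1, and several members are abundant in ductal pancreatic carcinoma.

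Summed totals ranged from 19519911 to 44972333 counts per library. The libraries carried the markers of ductal epithelium, with 7 of 8 averaging 1 CPM or more in every group and summed levels between 6522 and 10746 CPM. Epcam, the exception, was close to 0 at 0.0349 to 0.301 CPM. Mesenchymal markers summed to 1818 to 3192 CPM, nearly all of it from Vim at 1817 to 3191 CPM. Vim, a cytoskeletal gene of mesenchymal cells that carcinoma lines also express, was the single mesenchymal marker above 1 CPM. The remaining mesenchymal markers stayed at or below 0.904 CPM. Leukocyte markers summed to 1.86 to 3.71 CPM, endothelial markers to 0.350 to 1.15 CPM and acinar markers to at most 0.123 CPM. CPM values (counts divided by the library total in units of 1e+06) are further scaled by TMM factors, which align the bulk of genes between libraries, so every level and ratio is relative to the rest of the RNA in its library and does not give molecules per cell.

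All 6 S100 members lie on chromosome 3 of the mouse genome (GRCm38), on the plus strand. S100a13 (ENSMUSG00000042312, chr3:90514435-90524581), S100a16 (ENSMUSG00000074457, chr3:90537254-90543151), S100a4 (ENSMUSG00000001020, chr3:90603771-90606045) and S100a6 (ENSMUSG00000001025, chr3:90612882-90624181) follow one another. S100a11 (ENSMUSG00000027907, chr3:93520488-93526287) and S100a10 (ENSMUSG00000041959, chr3:93555080-93564643) form a second group farther along. The annexins are spread over the genome, with Anxa5 (ENSMUSG00000027712, chr3:36448923-36475894) on the minus strand of chromosome 3, Anxa3 (ENSMUSG00000029484, chr5:96793339-96845966) on chromosome 5, Anxa2 (ENSMUSG00000032231, chr9:69453620-69491795) on chromosome 9 and Anxa1 (ENSMUSG00000024659, chr19:20373428-20390944) on the minus strand of chromosome 19. The families differ in size as well as in place: the S100 transcripts measure 498 to 1127 nt in 3 or 4 exons, and the annexin transcripts 1447 to 1731 nt in 13 exons. S100a11 has 5 processed pseudogenes with near-identical stretches, which together drew few counts (0 to 109 each, against 163282 for S100a11). S100a4 shares 302 exonic bases with the predicted gene Gm42674, which was listed at 0 counts. How reads shared by such copies were treated is not given in the sources used here.

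The promoters of 8 of the 10 members were found in the RefSeq table for GRCm38.p6; S100a10 and Anxa3 had none there. The 120 bases before the start site are shown for 4 members with contrasting levels and changes: S100a6, the most abundant, S100a4, the least abundant, S100a11, the one with the largest fitted change in the cytoplasm, and Anxa2, the annexin whose polysomal share differed most. Capitals mark matches on either strand to TATAAA (the TATA box), TGANTCA (the site of AP-1 factors) and GGGCGG (the GC box of Sp1-type factors).
S100a4 (chr3:90603650-90603769, plus strand): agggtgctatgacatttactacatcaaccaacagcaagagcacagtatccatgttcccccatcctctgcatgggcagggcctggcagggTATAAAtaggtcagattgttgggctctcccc
S100a6 (chr3:90612774-90612893, plus strand): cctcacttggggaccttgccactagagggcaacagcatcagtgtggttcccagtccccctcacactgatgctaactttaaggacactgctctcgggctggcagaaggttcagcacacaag
S100a11 (chr3:93520376-93520495, plus strand): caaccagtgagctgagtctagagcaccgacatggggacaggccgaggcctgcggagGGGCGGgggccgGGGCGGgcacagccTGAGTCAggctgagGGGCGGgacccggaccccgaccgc
Anxa2 (chr9:69453563-69453682, plus strand): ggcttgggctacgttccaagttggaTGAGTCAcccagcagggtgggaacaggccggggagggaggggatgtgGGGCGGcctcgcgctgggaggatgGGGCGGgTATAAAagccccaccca

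Neighbouring S100 genes thus differed in these letters. S100a4 had a TATA match at -31 to -26 from the start site, and S100a6, in the same cluster, had none of the matches. S100a11 had 1 AP-1 match at -38 to -32 and 3 GC boxes, and Anxa2 had a TATA match, an AP-1 match at -95 to -89 and 2 GC boxes. Over the members, TATAAA was found for 3 (S100a4, Anxa1 and Anxa2), TGANTCA for 2 (S100a11 and Anxa2) and GGGCGG for 3 (S100a11, S100a16 and Anxa2). Of 32851 mouse promoter windows of the same length, 6.3% held TATAAA, 3.4% TGANTCA and 26.5% GGGCGG. The E-box CACGTG, present in 3.7% of the windows, was in none of the members' windows. These are matches of letters only, and no binding was measured.

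In NT cytoplasm the members spanned a wide range of abundance. S100a6, which codes for calcyclin, ranked 2 among the 13889 genes tested by mean CPM, Anxa2 ranked 65, Anxa3 82, S100a10 89, Anxa5 221, S100a11 227, Anxa1 348, S100a13 855, S100a16 1359 and S100a4 3670. Together they took 1.15 to 1.79% of the NT cytoplasmic libraries and 0.992 to 1.11% of the N6L cytoplasmic libraries. In polysomes they took 1.33 to 2.12% in NT and 1.36 to 1.95% in N6L.

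Levels of different genes can be compared only per length of transcript. On that scale S100a6 stood at 11348 ± 4288 CPM per kilobase (SD, n = 3) in NT cytoplasm, above S100a10 at 1757 ± 549, and the cultures of these genes did not overlap. S100a10 overlapped S100a11 (1134 ± 325), which overlapped Anxa2 (1046 ± 231). Anxa3 (786 ± 52.7) and Anxa5 (342 ± 54.7) followed without overlap between them. Anxa5, S100a13 (283 ± 118) and Anxa1 (235 ± 39.7) overlapped in turn. S100a16 (131 ± 44.4) and S100a4 (127 ± 70.5) were the lowest and overlapped each other. In N6L cytoplasm the same genes were first and second, S100a6 at 6946 ± 463 and S100a10 at 1017 ± 24.8 CPM per kilobase, while S100a11 (623 ± 38.4) came after Anxa2 (843 ± 52.0) and Anxa3 (666 ± 23.8), overlapping the latter.

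**Figure D1:**
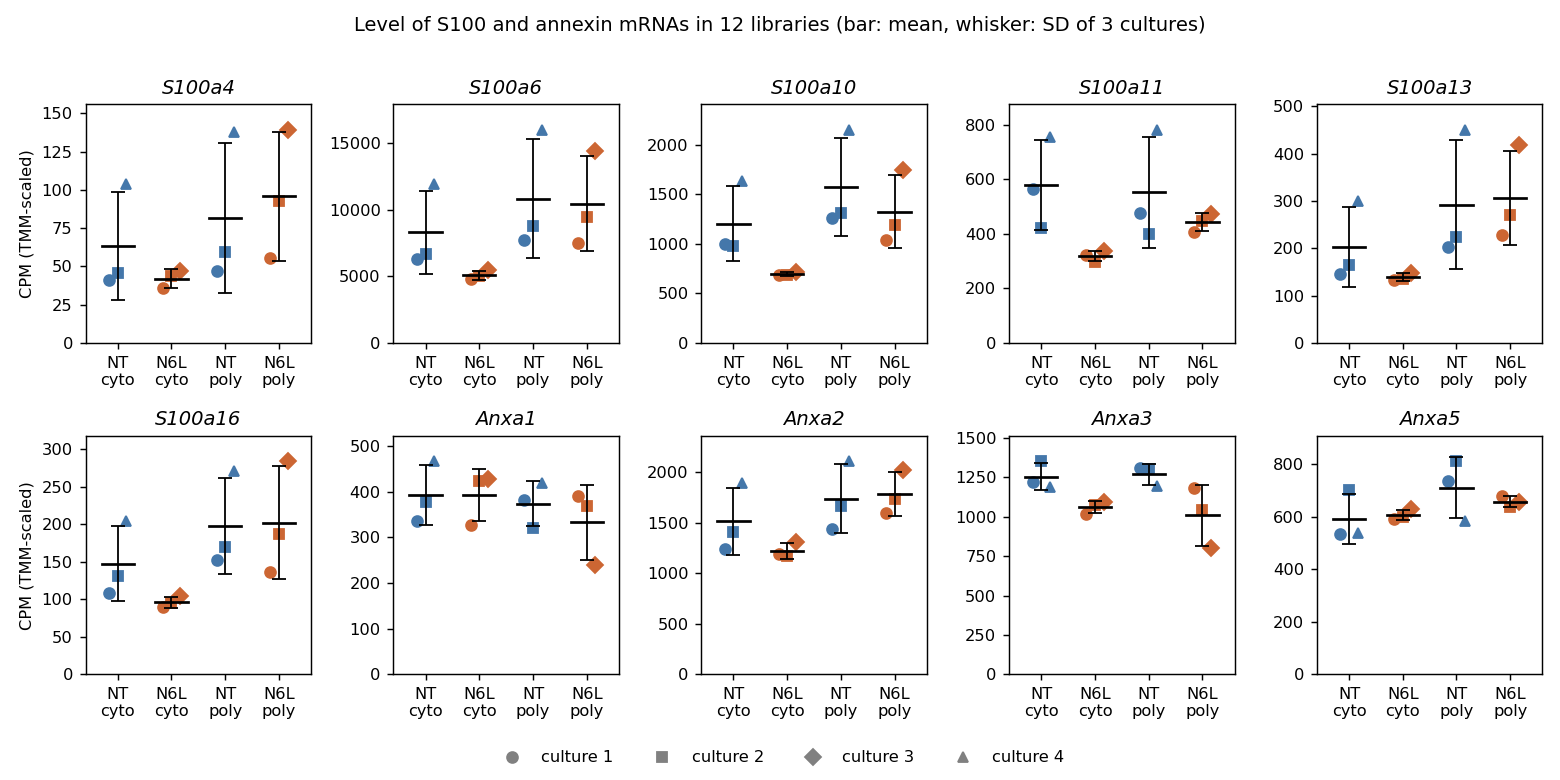
TMM-scaled CPM (linear axis from 0, one panel per gene) of the 10 members in NT and N6L cytoplasm and polysomes. Each symbol is 1 culture and its shape the culture number, the horizontal bar is the mean of 3 cultures and the whisker the SD. NT culture 4 was the highest of its group for every S100 gene, Anxa1 and Anxa2 in both fractions. It was so for 37.6% of all genes in the cytoplasm and 39.1% in polysomes. The N6L cytoplasmic libraries lay close together.

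With N6L, the cytoplasmic mRNAs of S100a10 and S100a11 fell, by 0.79 and 0.86 on the log2 scale, and no other member passed the test in the cytoplasm. Across all genes, 28.3% were called in this comparison, and 13.8% were called lower, so 2 of 6 S100 genes and 0 of 4 annexins compare with a background of that size. The fitted change was below 0 for all 6 S100 genes, with a median of -0.66, against -0.12 for the 4 annexins and 0.04 for all genes tested. NT culture 4 stood above the other NT cultures, with S100 levels 1.53 to 2.40 times the mean of the other NT cultures in the cytoplasm and 1.67 to 2.58 times in polysomes. Over all genes the median of that ratio was 0.973 and 1.00. NT culture 4 was the highest of its group for 37.6% of all genes in the cytoplasm and 39.1% in polysomes. It was also the highest for Anxa1 and Anxa2 in both fractions. Without that culture, the median S100 change in the cytoplasm was -0.36.

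S100A10, also called p11, carries annexin A2 to the cell surface and is itself kept stable by it. In NT cytoplasm S100a10 measured 997, 976 and 1638 CPM in cultures 1, 2 and 4, and in N6L cytoplasm 686, 687 and 716 CPM in cultures 1, 2 and 3. All N6L values lay below all NT values, and culture 4 was far above the other NT cultures. The log2 change was -0.79 (SE 0.25), a 1.73-fold lower level, with an adjusted p of 0.0329 (edgeR's quasi-likelihood test, Benjamini-Hochberg over all genes).

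S100A11, or calgizzarin, takes part in membrane repair with annexins. Its mRNA measured 563, 422 and 753 CPM in NT cytoplasm and 321, 297 and 336 CPM in N6L cytoplasm, again without overlap. The log2 change was -0.86 (SE 0.24), a 1.82-fold lower level, with an adjusted p of 0.0176 in the edgeR test. Without NT culture 4 it was -0.66 with an adjusted p of 0.0238, while S100a10 lost its call (-0.53, adjusted p of 0.0743). Without N6L culture 2 neither gene passed (edgeR adjusted p of 0.0759 for S100a11 and 0.0983 for S100a10). S100a10 also lost its call without N6L culture 1, and S100a11 without NT culture 1.

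The remaining S100 genes did not pass in the cytoplasm. S100a6 measured 6291, 6687 and 11908 CPM in NT and 4779, 5008 and 5445 CPM in N6L cytoplasm, so the treatments did not overlap, and the fitted log2 change was -0.71 (SE 0.30, edgeR adjusted p of 0.0922). S100a16, a widely expressed member with an unusual EF-hand, measured 108, 131 and 204 CPM in NT and 89.7, 94.6 and 104 CPM in N6L cytoplasm, also without overlap (-0.62, SE 0.29, edgeR adjusted p of 0.116). For both genes the gap between the lowest NT culture and the highest N6L culture was narrow compared with the distance of NT culture 4 from the other NT cultures.

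S100a13, whose protein assists the release of FGF1 without a signal peptide, measured 145, 164 and 299 CPM in NT and 133, 134 and 148 CPM in N6L cytoplasm (-0.55, SE 0.32, edgeR adjusted p of 0.209). S100a4, the metastasis-associated member that binds non-muscle myosin, measured 40.9, 45.5 and 104 CPM in NT and 35.6, 43.6 and 47.1 CPM in N6L cytoplasm (-0.59, SE 0.42, edgeR adjusted p of 0.303). The treatments overlapped for these genes. S100a4 had the widest spread, since its highest NT culture was 2.54 times its lowest, and without NT culture 4 its log2 change was -0.07. In all, the N6L cultures lay entirely below the NT cultures for 4 of 6 S100 genes and for 1 of 4 annexins, where 25.6% of all genes tested did so.

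The annexins changed little in the cytoplasm. Anxa2, the membrane and plasminogen-binding partner of S100A10, measured 1245, 1409 and 1889 CPM in NT and 1187, 1167 and 1306 CPM in N6L cytoplasm, with overlap (-0.31, SE 0.18, edgeR adjusted p of 0.206). Anxa3, an annexin linked to angiogenesis and drug resistance in tumours, measured 1222, 1349 and 1191 CPM in NT and 1018, 1076 and 1090 CPM in N6L cytoplasm. The latter was the one annexin without overlap, but its change was -0.24 (SE 0.15) and did not pass (edgeR adjusted p of 0.234).

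Anxa1, the anti-inflammatory annexin regulated by glucocorticoids, measured 336, 376 and 466 CPM in NT and 327, 424 and 427 CPM in N6L cytoplasm. Anxa5, which binds exposed phosphatidylserine, measured 534, 701 and 540 CPM in NT and 593, 599 and 629 CPM in N6L cytoplasm. These groups overlapped, and the fitted changes were 0.0004 (SE 0.20) for Anxa1 and 0.04 (SE 0.15) for Anxa5. The cytoplasmic change of Anxa1 had no stable sign between settings.

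In polysomes no member passed, against 9.67% of all genes tested. By the unadjusted edgeR p, 1 of 10 members (Anxa3) was under 0.05, beside 3684 of all 13889 genes. DESeq2 called 0 of 10 members, beside 2034 of all genes. The median log2 change was -0.01 for the S100 genes and -0.14 for the annexins, against 0.0008 for all genes. None of the 6 S100 genes had separate treatments in polysomes, and 1 of 4 annexins did, where 25.6% of all genes tested did so in either direction.

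The polysomal S100 levels were widely spread in both treatments. S100a6 measured 7727, 8771 and 15975 CPM in NT cultures 1, 2 and 4 and 7503, 9426 and 14434 CPM in N6L cultures 1, 2 and 3. S100a10 measured 1265, 1315 and 2148 CPM in NT and 1039, 1190 and 1745 CPM in N6L polysomes. S100a13 measured 203, 224 and 450 CPM in NT and 229, 271 and 418 CPM in N6L polysomes. In each of these genes NT culture 4 and N6L culture 3 were the high samples, and the remaining cultures of both treatments were lower.

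The same held for the less abundant members. S100a16 measured 152, 170 and 271 CPM in NT and 136, 187 and 284 CPM in N6L polysomes, and S100a4 measured 47.2, 59.5 and 138 CPM in NT and 55.3, 92.8 and 139 CPM in N6L polysomes. S100a11 differed in that its N6L polysomal values were close together, at 407, 449 and 471 CPM, against 475, 399 and 781 CPM in NT. N6L culture 3 was 1.10 times the mean of the other N6L cultures for S100a11 and 1.57 to 1.88 times for the other S100 genes, with a median of 0.978 over all genes. For 42.2% of all genes it was the highest N6L culture in polysomes.

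The annexins did not share the high polysomal values of N6L culture 3, except for Anxa2 (1597, 1734 and 2021 CPM in N6L against 1441, 1667 and 2106 CPM in NT). Anxa3 went the other way, with 1180, 1039 and 803 CPM in N6L polysomes against 1307, 1303 and 1191 CPM in NT, and every N6L value lay below every NT value. Its log2 change was -0.33 (SE 0.15), with an edgeR adjusted p of 0.175 that missed the limit. Anxa1 measured 391, 369 and 239 CPM in N6L against 380, 321 and 420 CPM in NT polysomes, and Anxa5 measured 680, 637 and 657 CPM in N6L against 739, 811 and 586 CPM in NT polysomes, so both overlapped.

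**Figure D2:**
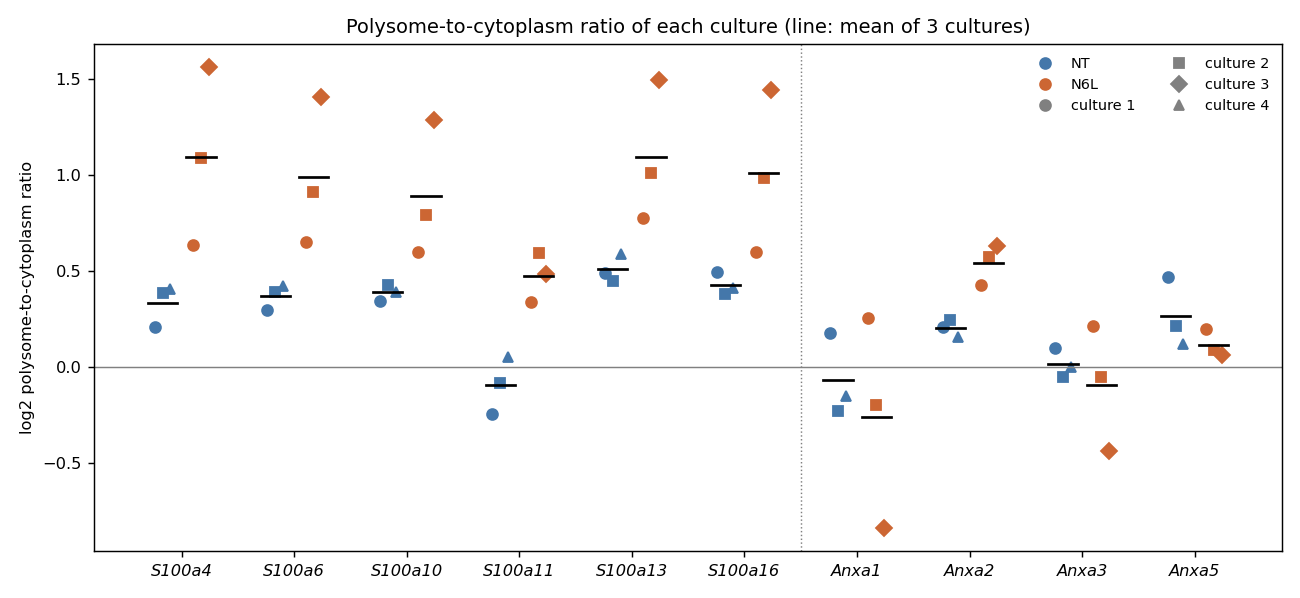
Log2 ratio of polysomal to cytoplasmic CPM in each culture (vertical axis, 0 means equal relative level in both fractions) for the 6 S100 genes, left of the dotted line, and the 4 annexins. Blue symbols are NT and orange symbols N6L cultures, shapes give the culture number and black lines the mean of 3 cultures. For all 6 S100 genes and Anxa2 every N6L culture lay above every NT culture.

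Within the N6L cultures, 5 of the 6 S100 mRNAs and Anxa2 were higher in polysomes than in cytoplasm. Among all genes, 39% were called in this comparison and 18.4% were called higher in polysomes. The log2 difference was 1.18 (SE 0.43) for S100a4, 1.14 (SE 0.33) for S100a13, 1.07 (SE 0.29) for S100a16, 1.04 (SE 0.31) for S100a6 and 0.93 (SE 0.25) for S100a10, which are 1.90-fold to 2.27-fold higher levels. The edgeR adjusted p was 0.0401 for S100a4 and between 0.0123 and 0.0176 for the other called S100 genes. S100a11 had a smaller difference, 0.47 (SE 0.24), that did not pass (edgeR adjusted p of 0.123). The S100 median was 1.06, against 0.02 for the annexins and 0.03 for all genes.

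Anxa2 was the one annexin that rose in polysomes relative to cytoplasm under N6L, by 0.55 (SE 0.18, edgeR adjusted p of 0.0299). Anxa1 (-0.24), Anxa3 (-0.08) and Anxa5 (0.12) did not pass. With the culture as a block, since both fractions of a culture came from one lysate, S100a11 passed too (0.47, edgeR adjusted p of 0.00486), and 7 of the 10 members were called, beside 7460 of all 13889 genes in that fit. The calls depended on single cultures: without N6L culture 2, or without N6L culture 3, 0 of the 10 members passed the edgeR test, while the S100 median was 1.13 and 0.80. Over all genes the calls fell likewise, from 5415 to 1153 and 1653.

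In NT cultures no member differed between the fractions by the edgeR test, where 0.209% of all genes were called. DESeq2 called 0 of 10 as well, beside 281 of all genes. Without a block, 0 of 10 had an unadjusted edgeR p under 0.05, beside 1855 of all 13889 genes. With the culture as a block, 4 of 6 S100 genes and 1 of 4 annexins had an unadjusted edgeR p under 0.05, beside 3424 of all genes. No member was called in that fit. Without the block, the fitted S100 differences were 0.37 to 0.53 for 5 genes and -0.07 for S100a11, and those of the annexins lay between -0.07 and 0.27. Culture by culture, the ratio was above 0 in all 3 NT cultures for 5 of 6 S100 genes and for Anxa2 and Anxa5, where 31.6% of all genes did so. In all 3 N6L cultures it was above 0 for 6 of 6 S100 genes and again for Anxa2 and Anxa5, where 37.6% of all genes did so.

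The ratios of single cultures show how the treatments were placed. For S100a6 the log2 ratio was 0.30, 0.39 and 0.42 in NT cultures 1, 2 and 4 and 0.65, 0.91 and 1.41 in N6L cultures 1, 2 and 3. For S100a4 it was 0.21, 0.39 and 0.41 in NT and 0.64, 1.09 and 1.56 in N6L. The NT cultures were close together and the N6L cultures spread widely above them, with N6L culture 3 the highest.

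S100a10, S100a13 and S100a16 had the same layout. For S100a10 the log2 ratio was 0.34, 0.43 and 0.39 in NT and 0.60, 0.79 and 1.28 in N6L. For S100a13 it was 0.49, 0.45 and 0.59 in NT and 0.78, 1.01 and 1.497 in N6L. S100a16 gave 0.49, 0.38 and 0.41 in NT and 0.60, 0.98 and 1.45 in N6L. NT culture 4, which stood apart in the S100 levels, did not stand apart in these ratios, since its cytoplasmic and polysomal levels were high together.

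S100a11 began from a lower ratio, -0.25, -0.08 and 0.05 in NT, and reached 0.34, 0.59 and 0.49 in N6L. It was the one S100 member with ratios below 0 in NT cultures, and its N6L cultures were the closest together. For Anxa2 the log2 ratio was 0.21, 0.24 and 0.16 in NT and 0.43, 0.57 and 0.63 in N6L, again without overlap.

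The other annexins did not separate. Anxa1 gave 0.18, -0.23 and -0.15 in NT and 0.26, -0.20 and -0.84 in N6L, and Anxa3 gave 0.10, -0.05 and 0.0003 in NT and 0.21, -0.05 and -0.44 in N6L. Anxa1, Anxa3 and Anxa5 had their lowest ratios in N6L culture 3, which had the highest ratio of every S100 member except S100a11. Anxa5 gave 0.47, 0.21 and 0.12 in NT and 0.20, 0.09 and 0.06 in N6L, with overlap.

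All N6L cultures lay above all NT cultures for 6 of 6 S100 genes and 1 of 4 annexins, where 15.3% of all genes did so. The exact two-sided permutation test gave p = 0.1 for these 7 genes, the smallest value that 3 against 3 cultures allow, and p = 0.8, 0.7 and 0.2 for Anxa1, Anxa3 and Anxa5. The mean difference between treatments was 0.50 to 0.76 for the S100 genes and 0.34 for Anxa2.

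Tested across all genes as the translational index, no member passed, and neither did any other gene (0% of 13889, edgeR; 1074 genes had an unadjusted p under 0.05, of which 0 were members). DESeq2 called 0 as well. The S100 indices were all above 0, from 0.54 (SE 0.36) for S100a10 to 0.82 (SE 0.60) for S100a4, with a median of 0.63. Anxa2 had an index of 0.35 (SE 0.26), and Anxa1, Anxa3 and Anxa5 had indices of -0.17, -0.09 and -0.15. The median of the annexins was -0.12 and that of all genes 0.01. The S100 median was 0.26 with an offset for transcript length and GC content and 0.40 without N6L culture 3, where S100a10 was at 0.31 and S100a13 at 0.37. With the culture as a block the unadjusted edgeR p fell below 0.05 for the 6 S100 genes and Anxa2, but the adjusted p stayed between 0.196 and 0.206. In that fit 2996 of all 13889 genes had an unadjusted edgeR p under 0.05. The index and the ratios share the cytoplasmic libraries with the cytoplasmic comparison, so they are not separate evidence.

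**Figure D3:**
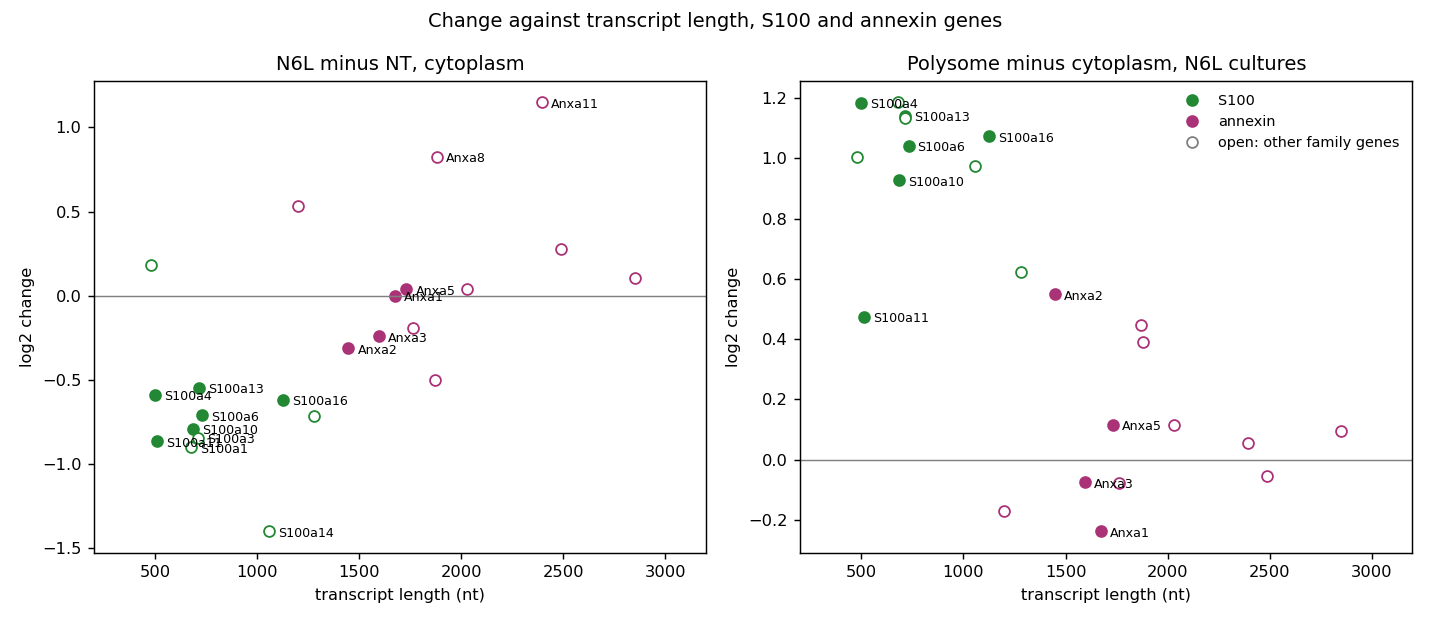
Log2 change (vertical axis) against transcript length in nt (horizontal axis) for the 10 members (filled) and the 13 other S100 and annexin genes that averaged 1 CPM or more in NT cytoplasm (open). The left panel shows N6L minus NT in the cytoplasm and the right panel polysome minus cytoplasm in N6L cultures. The short S100 transcripts (green) lay mostly below 0 on the left and above 0 on the right, and the longer annexin transcripts (purple) lay between -0.50 (Anxa9) and 1.15 (Anxa11) on the left, with 4 of the 12 below 0.

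Transcript length moved with these differences. Every S100 member has a shorter transcript than every annexin member, so family and length cannot be told apart among them. An offset for length and GC content, fitted in each library over all genes, removed every call among the members, while over all genes the calls went from 3935 to 4151 in the cytoplasm, from 1343 to 2974 in polysomes and from 5415 to 2388 between fractions under N6L. In the cytoplasm the S100 median went from -0.66 to -0.19, with S100a11 at -0.38 (edgeR adjusted p of 0.0827) and S100a10 at -0.32 (edgeR adjusted p of 0.124). In polysomes against cytoplasm under N6L, the S100 median went from 1.06 to 0.37 and Anxa2 from 0.55 to 0.08.

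With both the offset and the culture block, 4580 of all 13889 genes and 5 of the 10 members were called under N6L, namely S100a4 (0.70, edgeR adjusted p of 0.0117), S100a13 (0.42, 0.00591), S100a16 (0.35, 0.0130), S100a10 (0.36, 0.0243) and S100a6 (0.32, 0.0199). Anxa2 (0.08) and S100a11 (0.04) were not called in that fit. The part of length and GC content in these differences was tested by this offset alone, which used a single annotated transcript per gene.

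**Figure D4:**
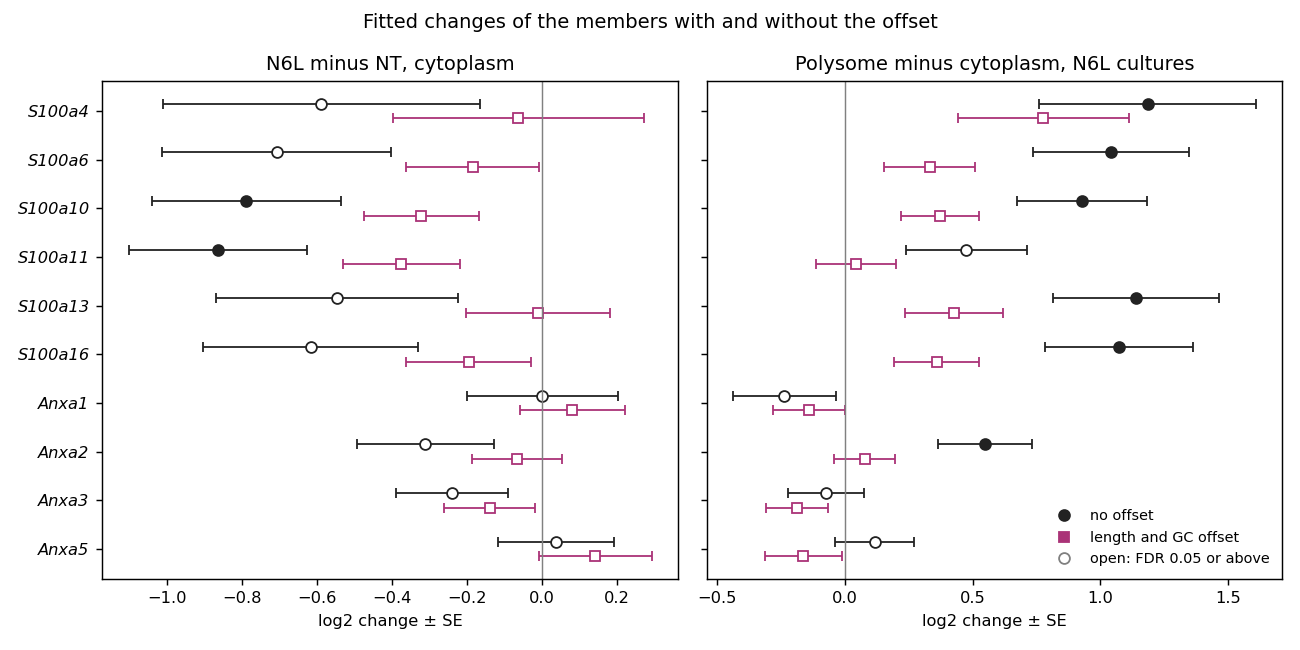
Fitted log2 change (horizontal axis, whiskers ± SE) of the 10 members without an offset (black circles) and with an offset for transcript length and GC content (purple squares). Filled symbols have an edgeR adjusted p under 0.05. The left panel is N6L minus NT in the cytoplasm and the right panel polysome minus cytoplasm in N6L cultures, and no purple symbol is filled in either panel.

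The other genes of the families widen the picture. Of 12 other S100 genes listed for the mouse, 11 were in the files and 9 had enough counts. In the cytoplasm 1922 of all 13889 genes were called lower with N6L and 2013 higher. Of the 9 S100 genes, 5 were lower and 0 higher, with a median of -0.74. They were S100a5 (-1.76, edgeR adjusted p of 0.0185), S100a14 (-1.40, 0.00211), S100a1 (-0.90, 0.0335), S100a3 (-0.84, 0.0195) and S100a7a (-0.72, 0.0231), all on chromosome 3 between positions 90511034 and 90658669. S100a1, known from muscle, was the most abundant of them at 256 ± 83.1 CPM in NT and 137 ± 9.15 CPM in N6L cytoplasm (SD, n = 3). S100a14, an epithelial member, went from 8.70 ± 2.64 to 3.31 ± 0.582 CPM, and S100a5 was rare, at 0.830 ± 0.465 CPM in NT and 0.233 ± 0.0309 CPM in N6L cytoplasm.

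In N6L polysomes against N6L cytoplasm 5 of the 9 were higher and 0 lower, with a median of 0.96: S100a1 (1.19, edgeR adjusted p of 0.00860), S100a3 (1.13, 0.00543), S100a14 (0.98, 0.00842), S100b (0.96, 0.0247) and S100a7a (0.62, 0.0320). Over all 13889 genes, 2559 were higher and 2856 lower in that comparison. In polysomes with N6L against NT, S100a14 alone passed (-0.95, edgeR adjusted p of 0.0229), beside 508 of all genes called lower and 835 higher. S100a8 and S100a9, the subunits of calprotectin in myeloid cells, averaged 0.141 to 0.581 CPM in the 4 groups, S100b averaged 0.368 to 1.11 CPM and S100g averaged 3.18 to 7.23 CPM. In the edgeR fit with no block or offset, S100a8, S100a9 and S100g passed in no comparison. With the length and GC offset, 2 of the 9 (S100a5 and S100a14) were called lower in the cytoplasm (median -0.35), as were 2480 of all 13889 genes. Between the fractions under N6L 0 were called with the offset (median 0.42), beside 2388 of all genes. In polysomes with N6L against NT, the offset fit called 2 of the 9 higher and 1 lower, beside 1290 and 1684 of all genes.

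All 8 other annexins had enough counts, and in the cytoplasm 3 were higher with N6L and 0 lower: Anxa11 (1.15, edgeR adjusted p of 0.0198), Anxa8 (0.83, 0.04998, just inside the limit of 0.05) and Anxa13 (0.53, 0.0369). Anxa11 went from 24.8 ± 12.5 to 55.0 ± 4.91 CPM (SD, n = 3), Anxa8 from 188 ± 62.8 to 332 ± 52.8 CPM and Anxa13 from 255 ± 34.1 to 369 ± 55.0 CPM. Anxa4, Anxa6, Anxa7, Anxa9 (-0.50, edgeR adjusted p of 0.0514) and Anxa10 (-0.19) did not pass. Of all 13889 genes, 2013 were called higher in this comparison and 1922 lower. With the replicate number as a block, and with DESeq2, 1 of the 8 was called lower, beside 2224 and 2469 of all 13889 genes. In polysomes against cytoplasm under N6L 0 of the 8 passed the edgeR test, beside 5415 of all genes. Their fitted differences lay between -0.17 and 0.45. By the unadjusted edgeR p, 1 of 8 was under 0.05, beside 6894 of all genes. With the culture block 2 of 8 passed, beside 7460 of all genes. With the length and GC offset 3 annexins of the 8 were higher and 1 lower in the cytoplasm, beside 1671 and 2480 of all genes.

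Genes that code for binding partners of these proteins or take part in membrane repair gave mixed directions. Of 22 listed, 19 were tested. In the cytoplasm 4 were higher and 2 lower with N6L, beside 2013 and 1922 of all 13889 genes. Capns1, the small calpain subunit that carries EF-hands, fell from 712 ± 97.2 to 372 ± 25.4 CPM (-0.94, SE 0.18, edgeR adjusted p of 0.00325). Myof, a ferlin that acts in membrane fusion and repair, rose by 0.86 (edgeR adjusted p of 0.0491).

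The plasminogen activators were looked up after their values had been seen, because annexin A2 and S100A10 together bind plasminogen and its activator. Plat rose in the cytoplasm by 0.84 (edgeR adjusted p of 0.00482), from 27.3 ± 1.70 to 48.7 ± 10.05 CPM, and Plau by 0.57 (0.0199), from 11.97 ± 0.999 to 17.7 ± 2.60 CPM. In polysomes against cytoplasm under N6L, 2 of the 19 partners were higher and 6 lower, beside 2559 and 2856 of all 13889 genes. Capns1 was higher (0.74, edgeR adjusted p of 0.00768) and Myof lower (-1.37, 0.00663). Ahnak, the giant scaffold bound by the annexin A2 and S100A10 complex, also chosen after its values were seen, was lower as well (-1.26, 0.00607). With the length and GC offset, Myof did not pass in the cytoplasm (0.36) and Capns1 did not pass between the fractions (0.13).

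Other EF-hand proteins served as a view of the wider class. Of 28 listed, 24 were tested. In the cytoplasm 1 was higher and 3 lower with N6L, with a median of -0.11, beside 2013 and 1922 of all 13889 genes. Chp1, a calcineurin-like regulator of sodium-proton exchange, rose by 0.82 (edgeR adjusted p of 0.00174), Cib1, a calcium and integrin binding protein, fell by 0.73 (0.0424) and Efhd2, an actin-associated protein, fell by 0.65 (0.0228). In polysomes against cytoplasm under N6L, 7 of the 24 were higher and 3 lower, with a median of 0.06, beside 2559 and 2856 of all genes. Cib1 (0.92, edgeR adjusted p of 0.0134) and Efhd2 (0.63, 0.0195) were among the 7 EF-hand genes that were higher. With the length and GC offset neither passed between the fractions (0.12 and 0.24), and Cib1 did not pass in the cytoplasm (-0.22). These medians stood beside -0.66 and 1.06 for the 6 S100 members. With the offset they were 0.05 and 0.23, beside -0.19 and 0.37, and the difference between the lists was not tested.

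Among the cell type markers, Sox9, a ductal transcription factor, rose in the cytoplasm by 1.09 (edgeR adjusted p of 0.00230) and Krt7, a ductal keratin, fell by 0.97 (0.00829), so ductal markers moved in opposite directions beside the S100 genes. Pecam1, an endothelial gene, was called higher (1.93, edgeR adjusted p of 0.0352) at 0.0926 ± 0.0431 CPM in NT and 0.361 ± 0.0720 CPM in N6L cytoplasm, levels near 0, and it did not pass with the length and GC offset. The part of these markers in the S100 values was not tested.

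Likeness of level over the 12 libraries was described by the correlation of log2 CPM among the 8958 genes that averaged 10 CPM or more. The libraries share cultures, and treatment, fraction and transcript length shape many genes at once. For S100a10 the nearest genes were Naa38 (r = 0.998), Uqcr11 (r = 0.998) and Mrps34 (r = 0.995). For S100a6 they were Cox7a2 (r = 0.991), Rpp25l (r = 0.989) and S100a16 (r = 0.989). For Anxa2 they were Trmt112 (r = 0.984), S100a13 (r = 0.981) and Chmp2a (r = 0.981). The listed neighbours have transcripts of 445 to 1127 nt, all shorter than that of Anxa2.

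S100a10 and Anxa2, whose proteins form a complex, correlated at r = 0.933. S100a10 ranked 111 among the genes nearest to Anxa2, and Anxa2 ranked 712 among those nearest to S100a10. In the latter ranking S100a6 was at 138, S100a16 at 371, S100a13 at 685, S100a4 at 1322 and S100a11 at 1552. Pairs of S100 genes correlated at 0.665 to 0.989 (15 pairs, median 0.948), with S100a11 less close to S100a6 (r = 0.780) than the other S100 members were. S100 and annexin genes paired at -0.389 to 0.981 (24 pairs, median -0.00355), where the pairs with Anxa2 gave 0.699 to 0.981. Pairs of annexins gave -0.296 to 0.542 (6 pairs). By level across these libraries, Anxa2 thus stood nearer the S100 genes than the other 3 annexins did. Many genes outside these families were as near, and S100a11 ranked 1989 of 8958 among the genes nearest to Anxa2.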

How the data were processed

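Cytoplasmic and polysomal poly(A)+ RNA (TruSeq Stranded mRNA) was sequenced from 3 NT and 3 N6L cultures. The authors deposited raw counts per gene, made with STAR and HTSeq 0.5.3 on mm10 (the submitters' processing notes also name bcl2fastq 2.18.0.12). Not given in the sources used here are the annotation, the strand setting and the handling of reads with several matches. Samples were grouped by their titles. The 4 technical replicates of each library (48 sets of counts) were summed, since a chi-square test found ratios to its degrees of freedom of only 1.02 to 1.04. For 3 replicates of N6L culture 2 cytoplasm the labels disagree on the culture. They were kept with culture 2, from which they differed by 1.01 to 1.04, against 11.2 to 11.4 from culture 1.

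Counts were filtered with filterByExpr (13889 genes) and TMM-scaled. The quasi-likelihood test of edgeR 4.0.16 (R 4.3.3) used all 12 libraries and 1 mean per group, with Benjamini-Hochberg adjustment and a limit of 0.05. The common biological coefficient of variation was 0.197. Ratios per culture used a prior count of 2 and exact two-sided permutation tests. GENCODE vM21 gave symbols and coordinates for 50376 of 50600 genes, and transcript length and GC content for 13867 of 13889. A single annotated transcript stood for each gene and can be far from the one expressed. For Ahnak, which codes for a giant protein, it was 830 nt long. The fit was tested on simulated data.

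Named genes were the 10 members, the other S100 and annexin genes with enough counts, and the 3 largest called cytoplasmic changes of each further list, of which 1 gene is not reported here. Ahnak, Plau and Plat were added after their values were seen. The members and lists were chosen with earlier results of these data known. Fractions of a culture come from one lysate and are paired; their deviations correlated at 0.364, 0.452 and 0.645 in NT and 0.0368, 0.199 and 0.229 in N6L. Alternatives were other scalings (RLE size factors, library totals), filters (none, or at least 10 counts in every library), DESeq2 1.42.0 and technical replicate a alone. Further ones were the conflicting replicates left out, each culture left out, fits of the compared groups only, blocks and a length and GC offset. The block was the replicate number for N6L against NT, and the culture for polysomes against cytoplasm and for the index. Promoter sequences are RefSeq's.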

Additional observations from a re-analysis of the deposited data

How the results depend on the processing

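The count of members called in the cytoplasm (2 at first) was 5 without a filter, 4 in a fit of the compared groups alone and 0 with the length and GC offset. It was 0 to 2 when a culture was left out (0 without N6L culture 2). Over all genes the calls were 4403 of 25915 without a filter and 5666 of 13426 with the compared groups alone. They were 4151 of 13889 with the offset and 1295 of 14019 without N6L culture 2. In polysomes the count of members (0) stayed 0 in all of these settings. Under N6L the count for polysomes against cytoplasm (6) was 0 with the offset and 0 to 7 when a culture was left out (0 without N6L culture 2 or 3). The 7 were called without NT culture 4, in a fit that called 5861 of 14032 genes. For the translational index and the NT fractions the count of members was 0 in every setting run. NT and N6L cultures share only numbers (same-number correlations 0.00756 to 0.296). Number 4 occurred only in NT and number 3 only in N6L. The replicate block therefore compares the treatments directly only within numbers 1 and 2, and its fit is not a full pairing. With the replicate block, 4 members were called in the cytoplasm, 0 in polysomes and 7 between fractions under N6L, where the block was the culture. Over all 13889 genes, 4737, 1355 and 7460 were called in these fits. With block and offset the members' counts were 0, 2 (S100a4 and S100a13) and 5, and those of all genes 4457, 3026 and 4580. Scaling by library totals moved the median of all genes to 0.19 in the cytoplasm and -0.11 between fractions under N6L, and S100 medians were then -0.51 and 0.90. Where a culture is left out, its group of 2 is assumed to vary like the others. A fit of the compared groups alone could not be made for the index, which uses all 4 groups. The part of depth in these limits was not tested; S100a4, the lowest member, had 24436 counts over the libraries.

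Of 1326 alternative values for 79 changes of single genes, 59 changed sign, all of members and none of a called change, 130 no longer passed and 12 newly passed; the causes were not tested. With block and offset, in the cytoplasm, S100a4 was 0.113, S100a13 0.157 and Anxa2 0.0215. In polysomes under that fit S100a6 was 0.190, S100a11 0.110 and Anxa1 0.0494, and between fractions Anxa1 was 0.0160, Anxa2 -0.0148 and Anxa3 -0.0626 in NT and Anxa5 -0.165 in N6L. With the replicate block alone, polysomal S100a6 was 0.127 and Anxa1 0.00217, and cytoplasmic Anxa5 -0.0654. With the offset alone, polysomal S100a6 was 0.0724, and between fractions Anxa1 was 0.00769, Anxa2 -0.0181 and Anxa3 -0.0625 in NT and Anxa5 -0.163 in N6L. With library totals, polysomal S100a6 was 0.0343, Anxa3 between NT fractions -0.0587 and Anxa5 between N6L fractions -0.0169. Cytoplasmic Anxa1 was -0.0358 with RLE size factors and with DESeq2, -0.0436 with technical replicate a alone, -0.0426 with the compared groups alone and -0.00730 without the conflicting replicates. Cytoplasmic Anxa5 was -0.000717 with the compared groups alone, and Anxa3 between NT fractions -0.00158 with replicate a alone.

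With each culture left out in turn, polysomal changes ranged from -0.138 to 0.859 for S100a4, -0.354 to 0.356 for S100a6, -0.499 to 0.0517 for S100a10, -0.506 to 0.0281 for S100a11, -0.227 to 0.532 for S100a13, -0.290 to 0.342 for S100a16, -0.297 to 0.0258 for Anxa1 and -0.0814 to 0.215 for Anxa2. Cytoplasmic changes ranged from -0.102 to 0.117 for Anxa1 and -0.0542 to 0.178 for Anxa5. Between NT fractions the range was -0.197 to 0.00622 for S100a11 and -0.0255 to 0.0509 for Anxa3, between N6L fractions -0.485 to 0.0182 for Anxa1 and -0.234 to 0.0843 for Anxa3, and for the index -0.414 to 0.0897 for Anxa1 and -0.249 to 0.0694 for Anxa3.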
